A study of Mus musculus with 12 samples.

Results

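The transcription factor NRF2, encoded by Nfe2l2, and 7 of its target genes (Nqo1, Hmox1, Gclc, Gclm, Txnrd1, Srxn1 and Slc7a11) were followed through RNA-Seq libraries of differentiating mouse primary keratinocytes. The 8 genes were picked by symbol from the gene name of each counted locus, and locus names joined by a comma were left out. All 8 were found among 21947 loci, and all 8 passed the filter on low counts in every comparison. Epidermal keratinocytes of newborn BALB/c mice had been cultured at 0.05 mM calcium and moved to 0.12 mM calcium, which starts their differentiation. They received 75 pmol of a pool of siRNAs against Sbsn, an epidermal gene under study for its part in differentiation (siSbsn), 75 pmol of a non-targeting siRNA pool (siControl), or no siRNA. siRNA was added 24 h after seeding and RNA was taken 48 h after transfection. By the labels, each of these 3 conditions has 2 libraries in batch 1, while batch 2 consists of 3 libraries with siControl and 3 with siSbsn. None of the cultures carried an engineered allele by the labels, and the sources used here do not say what set the batches apart.

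NRF2 is kept low in resting cells by KEAP1, which presents it to a CUL3 ubiquitin ligase for destruction. When oxidants or electrophiles modify KEAP1, NRF2 escapes, pairs with a small MAF protein and binds antioxidant response elements in the promoters of its targets, and BACH1 competes for these sites. The control acts mainly on NRF2 protein, so the targets are often read as its output. In epidermis NRF2 is known for guarding against oxidants and for raising Sprr2d and Sprr2h, small proline-rich envelope genes, when other cornified envelope proteins are missing.

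The core of the antioxidant response element was searched in the promoters of these genes, as TGACNNNGC and as its variant TGAGNNNGC, on both strands of the 250 bases before each RefSeq gene start (GRCm38.p6). TGACNNNGC was in 10.2% of 32851 promoters, TGAGNNNGC in 14.4%, and one or the other in 23.0%. The promoter table held no entry for Hmox1 and Gclc. Of the other 6 genes, 5 had a core in at least 1 promoter and Nqo1 had none in this window. The windows of 30 bases around the cores are printed here as the matches found, and whether they link these genes was not tested. They run 5′ to 3′ on the strand of the gene with the core in capitals, and a core on the opposite strand appears as its reverse complement.
Nfe2l2, chr2:75704884-75704913, minus strand, core 240 to 232 bases before the start: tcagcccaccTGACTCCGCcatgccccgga
Gclm, chr3:122245413-122245442, plus strand, core 134 to 126 bases before the start: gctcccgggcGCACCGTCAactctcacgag
Txnrd1, the second of 3 starts, chr10:82859104-82859133, plus strand, core 92 to 84 bases before the start: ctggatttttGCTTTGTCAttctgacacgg
Srxn1, chr2:152105469-152105498, plus strand, core 45 to 37 bases before the start: aaattcacccTGAGTCAGCggccgggcgcg
Srxn1, chr2:152105356-152105385, plus strand, core 158 to 150 bases before the start: tctactgagaGCCGACTCAtcctctctggg
Slc7a11, chr3:50443691-50443720, minus strand, core 97 to 89 bases before the start: taatgttggcGCTTTCTCAagctggagttt
The Srxn1 core nearer the start overlaps the AP-1 motif TGANTCA, which was in 6.75% of all promoters. None of the other 5 cores overlaps it. A match of letters is a description of the sequence and not evidence of binding.

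Total counts ranged from 27934836 to 49553923 per library. Replicates were compared in 9 pairs, and each pair differed beyond counting noise (chi-square per degree of freedom 4.47 to 204), so each library was taken as 1 sample. The labels do not say whether the libraries of a condition came from separate cultures, and p-values measure only the spread between these libraries. Levels are given as CPM, the count of a locus scaled to a common normalized library size. For Sbsn itself the siControl libraries of batch 2 had 371, 332 and 459 CPM and the siSbsn libraries 124, 125 and 121 CPM. The batch 1 libraries had 1697 and 1231 CPM (no siRNA), 1189 and 1356 CPM (siControl) and 1965 and 696 CPM (siSbsn). The library labelled siSbsn batch 1 replicate 1 therefore had the highest Sbsn level of all 12 libraries, so the direction of every siSbsn comparison that includes batch 1 rests partly on a library whose Sbsn level goes against its label. All 4 keratinocyte markers (Krt5, Krt14, Krt17 and Trp63) were detected in every library. Fibroblast markers (6 of 6) and melanocyte markers (4 of 4) were detected too, where Pmel was counted as a joined locus with Dgka. Of 5 immune markers, Cd68 (up to 8.72 CPM), Csf1r (up to 3.51 CPM) and Ptprc (up to 1.97 CPM) were detected in every library, Cd3e reached 0.43 CPM, and Cd207 was at 0 throughout. The endothelial marker Kdr reached 2.18 CPM, and the adipocyte markers Adipoq and Plin1 were at or near 0.

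The 8 genes were expressed at very different levels. Divided by transcript length, Hmox1, the enzyme that breaks down haem, was the most abundant in all 5 groups, between 101 and 184 CPM per kb. Nfe2l2 and Txnrd1 (thioredoxin reductase) came next in every group. Nfe2l2 was ahead of Txnrd1 without siRNA (54.9 ± 0.46 against 51.1 ± 19.8 CPM per kb, SD, n = 2), a difference within the spread of Txnrd1. Txnrd1 was ahead in siControl of batch 2 (86.9 ± 5.33 against 62.1 ± 2.63 CPM per kb, SD, n = 3). Srxn1 (sulfiredoxin, which repairs overoxidized peroxiredoxins) and Gclc (the catalytic subunit of glutamate-cysteine ligase, which starts glutathione synthesis) followed. Srxn1 was ahead of Gclc in siSbsn of batch 1 (24.8 ± 2.97 against 21.5 ± 1.07 CPM per kb, SD, n = 2). In batch 2 the order of these 2 genes was turned, with Gclc at 29.7 ± 1.93 and Srxn1 at 11.7 ± 0.79 CPM per kb in siControl (SD, n = 3). Nqo1, a quinone reductase often used as a readout of NRF2, and Slc7a11, the cystine importer, were the lowest, and Slc7a11 did not pass 2.33 CPM per kb in any group. Gclm was left out of this order because its longest coding transcript (5589 bases) reaches past the counted locus, and the longest one inside it has 1088 bases. For the other 7 genes the longest coding transcript lies within the locus.

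**Figure D1:**
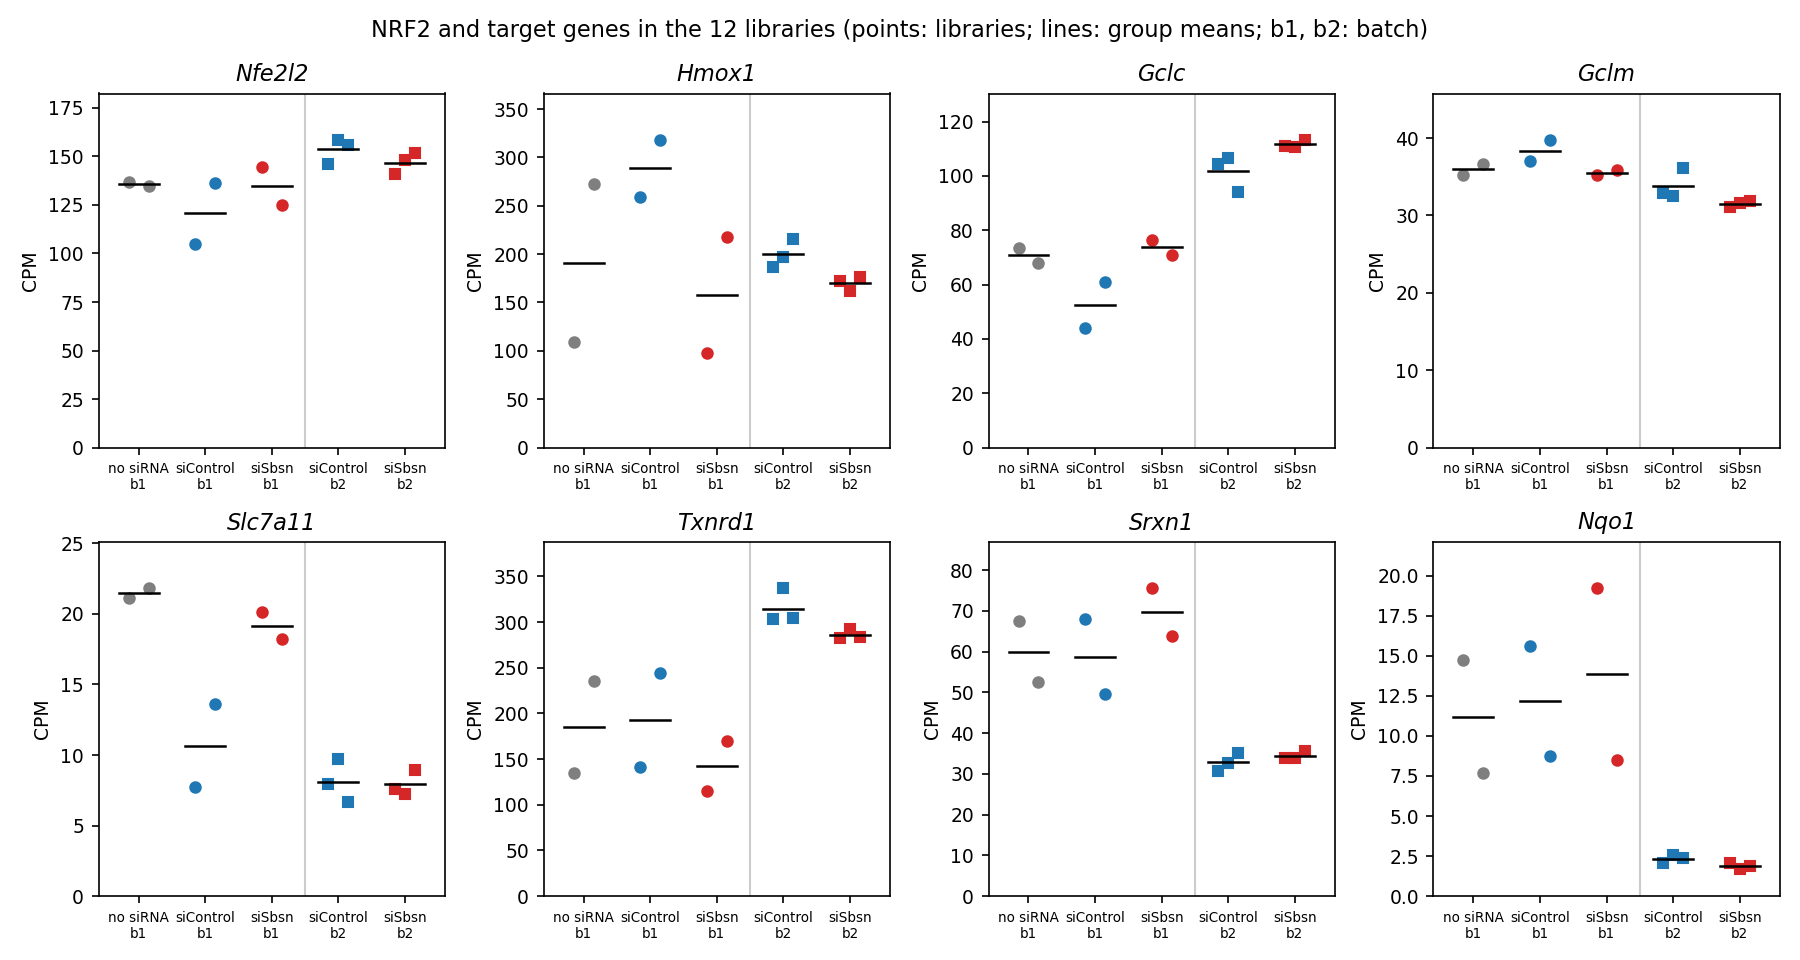
Each panel shows 1 gene, with CPM from 0 on the vertical axis, libraries as points (circles batch 1, squares batch 2) and group means as lines. The batch 2 libraries lie above all batch 1 libraries for Gclc and Txnrd1 and below all of them for Srxn1 and Nqo1, and within batch 2 the siControl and siSbsn points lie close together.

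The siSbsn against siControl comparison asks whether the NRF2 genes shifted with the siRNAs against Sbsn. Over both batches none of the 8 genes was called, with batch as a term. A call needs a log2-fold change beyond 0.5 in size together with q below 0.05 in the quasi-likelihood test of edgeR. Sbsn itself was at -0.96 (SE 0.35, q = 0.256) in this fit and was not called. It was at 0.03 (SE 0.45, q = 0.975) in batch 1 and at -1.64 (SE 0.10, q = 0.000560) in batch 2. A loss of Sbsn was thus called in batch 2 alone, and the batch 1 comparison showed no net loss. Of the 13211 loci tested 0.0% were called. At an unadjusted p under 0.05 there were 2 of the 8 genes, Gclc and Hmox1, and 2501 of all loci. DESeq2 called 50 loci higher and 42 lower, none of them among the 8. The median log2-fold change of the 8 genes was -0.02, and over all loci tested it was 0.01. On simulated counts, drawn as independent libraries, this comparison found 88 of 100 loci given a log2 change of 1. In the data it did not call Sbsn at -0.96, so this share cannot be carried over to the real libraries.

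Nfe2l2 lies on chr2:75675513-75704663 (mm10, minus strand), and its longest transcript within the locus has 5 exons. Its batch 1 levels were 137 and 135 CPM (no siRNA), 105 and 136 CPM (siControl) and 145 and 125 CPM (siSbsn). In batch 2 the siControl libraries had 146, 159 and 156 CPM and the siSbsn libraries 141, 148 and 152 CPM. The groups overlapped in both batches, and the log2-fold change of siSbsn against siControl over both batches was 0.03 (SE 0.09, q = 0.840 from edgeR's quasi-likelihood test). It was -0.08 with both replicate 1 libraries of batch 1 left out.

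Hmox1 (chr8:75093618-75100593, plus strand) was the member with the lowest log2-fold change. The siControl libraries of batch 2 had 187, 197 and 216 CPM and the siSbsn libraries 172, 162 and 176 CPM, with no overlap. In batch 1 the siControl libraries had 259 and 318 CPM and the siSbsn libraries 97.6 and 218 CPM, again with no overlap, while the libraries without siRNA had 109 and 272 CPM and spanned most of that range. With both batches in the fit, Hmox1 had a log2-fold change of -0.48 (SE 0.20, unadjusted p = 0.0370, q = 0.260, edgeR). Within batch 2 alone it was -0.22 (SE 0.07, unadjusted p = 0.00714, q = 0.421), and within batch 1 it was -0.90 (SE 0.50, q = 0.362). Without siSbsn batch 1 replicate 1, the library with the highest Sbsn level, Hmox1 was at -0.28 over both batches and at -0.43 in batch 1. Without siSbsn batch 1 replicate 2 it was at -1.60 in batch 1. Hmox1 passed the threshold in batch 1 when no filter on low counts was applied (-0.89, q = 0.0496), as did 851 of 18973 loci.

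Gclc and Gclm encode the subunits of 1 enzyme, and their values went opposite ways. Gclc (chr9:77754535-77794489, plus strand, 16 exons) had 104, 107 and 94.2 CPM in the siControl libraries of batch 2 and 111, 111 and 113 CPM in the siSbsn libraries. Batch 1 gave 73.3 and 68.1 CPM (no siRNA), 43.8 and 60.8 CPM (siControl) and 76.3 and 71.1 CPM (siSbsn). The siSbsn libraries lay above the siControl libraries in both batches, with a log2-fold change of 0.28 (SE 0.11, unadjusted p = 0.0237, q = 0.256, edgeR), or 0.18 without siControl batch 1 replicate 1. In batch 1 the siControl libraries were also below those without siRNA, and the siSbsn and untreated libraries lay between 68.1 and 76.3 CPM. Gclm, the modifier subunit (chr3:122245557-122267215, plus strand), was at 32.9, 32.5 and 36.1 CPM in siControl and 31.1, 31.6 and 31.9 CPM in siSbsn of batch 2, and at 37.0 and 39.8 CPM in siControl and 35.2 and 35.8 CPM in siSbsn of batch 1. The log2-fold change was -0.10 (SE 0.07, q = 0.352, edgeR) and turned to 0.07 when each library's trend on gene length was removed, a setting that rests on the 1088 bases taken as the length of Gclm. Gclm was the steadiest of the 8 genes in batch 1, where its highest library was 1.13 times its lowest.

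Slc7a11 (counted as a joined locus with AK089283 on chr3:50364936-50443613, minus strand) differed between the batches in how it stood toward siControl. The batch 1 libraries had 21.2 and 21.8 CPM (no siRNA), 7.75 and 13.6 CPM (siControl) and 20.2 and 18.2 CPM (siSbsn). The siControl libraries thus lay below the other 4, at 49.6% of the mean without siRNA. Batch 2 gave 7.94, 9.70 and 6.70 CPM (siControl) and 7.60, 7.25 and 8.96 CPM (siSbsn), and the groups overlapped. The log2-fold change of siSbsn against siControl was 0.82 (SE 0.29, unadjusted p = 0.0245, q = 0.309, edgeR) in batch 1 and -0.03 (SE 0.14, q = 0.935) in batch 2. The difference between these effects was -0.86 (SE 0.34, unadjusted p = 0.0298, q = 0.307, edgeR's batch by treatment interaction).

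In that interaction test 0.0% of 13419 loci were called, and of the 8 genes Slc7a11 alone had an unadjusted p under 0.05, as had 1991 of all loci. DESeq2 called 35 loci higher and 131 lower in the interaction, none of them among the 8. Leaving out 1 library gave calls. Without siControl batch 1 replicate 2 the batch 1 change was 1.25 for Slc7a11 (q = 0.0293) and 0.69 for Gclc (q = 0.0416, edgeR), and the interaction was -1.33 for Slc7a11 (q = 0.00698) and -0.60 for Gclc (q = 0.00991), with siControl then resting on 1 library assumed to vary like the other groups. Over all 13558 loci of that batch 1 fit 1137 were called higher and 1481 lower, so the calls of these 2 genes came with many others. In the interaction without that library 1897 loci were called higher and 2465 lower. Without siSbsn batch 1 replicate 2 the interaction of Hmox1 was 1.35 (q = 0.0133), among 81 loci called higher and 330 lower. The siSbsn arm of batch 1 was then 1 library, replicate 1, whose Sbsn level goes against its label.

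Of the thioredoxin arm, Txnrd1 (chr10:82833951-82897724, plus strand) had 303, 337 and 304 CPM in the siControl libraries and 282, 292 and 283 CPM in the siSbsn libraries of batch 2, with no overlap. Its batch 1 levels were 134 and 236 CPM (no siRNA), 141 and 244 CPM (siControl) and 115 and 170 CPM (siSbsn), where the groups overlapped. The log2-fold change over both batches was -0.25 (SE 0.15, q = 0.327, edgeR). Leaving out siControl batch 1 replicate 2 brought Txnrd1 to -0.083, and leaving out siSbsn batch 1 replicate 1 brought it to -0.15. Srxn1 (chr2:152105524-152111376, plus strand, 2 exons) had batch 1 levels of 67.5 and 52.5 CPM (no siRNA), 68.0 and 49.5 CPM (siControl) and 75.6 and 63.7 CPM (siSbsn). Batch 2 gave 30.7, 32.6 and 35.2 CPM (siControl) and 34.0, 33.8 and 35.6 CPM (siSbsn). The groups overlapped in both batches, and the log2-fold change was 0.15 (SE 0.10, q = 0.365, edgeR).

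Nqo1 (chr8:107388225-107403205, minus strand, 6 exons) had batch 1 levels of 14.8 and 7.66 CPM (no siRNA), 15.6 and 8.78 CPM (siControl) and 19.2 and 8.49 CPM (siSbsn). The siControl libraries of batch 2 had 2.06, 2.55 and 2.38 CPM and the siSbsn libraries 2.04, 1.69 and 1.86 CPM. The 3 siSbsn libraries of batch 2 lay below the 3 siControl libraries, on counts of 49 to 105 per library, with a log2-fold change of -0.30 (SE 0.15, q = 0.498, edgeR). Over both batches it was -0.08 (SE 0.25, q = 0.842), and 0.10 once each library's length trend was taken out.

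Counted by separation of the libraries, 1 of the 8 genes (Gclc) had every siSbsn library above every siControl library of its batch in both batches, where 5.02% of all loci did. Hmox1 and Gclm had them below in both batches, where 4.12% of all loci did. In batch 2 alone Gclc lay above (9.39% of all loci), and Nqo1, Hmox1, Gclm and Txnrd1 lay below (9.15% of all loci). None of these was called in batch 2, where edgeR called 0.00774% of 12924 loci, which is Sbsn alone. At an unadjusted p under 0.05 there were 1 of the 8 genes in batch 2 (Hmox1) and 1319 of all loci. By DESeq2 1 locus was higher and 6 were lower, none of them among the 8. In batch 1, 0.0% of 13176 loci were called, with 1 of the 8 genes (Slc7a11) and 2077 of all loci at an unadjusted p under 0.05. By DESeq2 135 loci were higher and 30 lower, none of them among the 8.

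**Figure D2:**
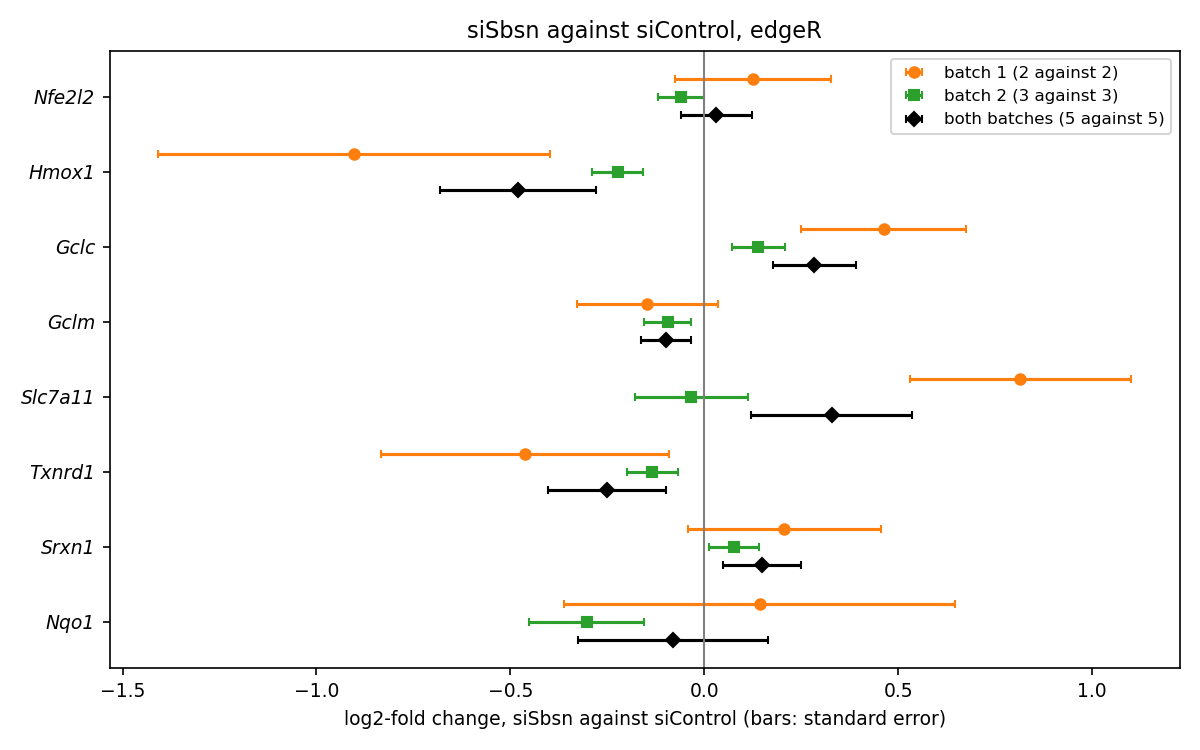
The log2-fold change of siSbsn against siControl is plotted for each gene, with bars of 1 standard error, for batch 1 (orange), batch 2 (green) and both batches (black). Batch 1 values spread from -0.90 for Hmox1 to 0.82 for Slc7a11, and batch 2 values stay between -0.30 and 0.14.

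The libraries without siRNA allow a look at the control itself within batch 1. Of the 8 genes none was called between siControl and no siRNA, and 0.0% of 13176 loci were. Slc7a11 had the lowest log2-fold change, -0.98 (SE 0.29, unadjusted p = 0.0110, q = 0.308, edgeR), and was the 1 gene of the 8 at an unadjusted p under 0.05, where 2116 of all loci were. It was called at -0.99 (q = 0.0379) with no filter on low counts, where 815 of 18973 loci were called. Without siControl batch 1 replicate 2, Slc7a11 was called at -1.41 (q = 0.0251) and Gclc at -0.63 (q = 0.0431), among 1740 loci called higher and 1473 lower. DESeq2 called 25 loci lower, none of them among the 8. Gclc was at -0.40 (SE 0.21, q = 0.335) and Hmox1 at 0.63 (SE 0.50, q = 0.473). Gclc and Slc7a11 had both siControl libraries below the other 4 libraries of batch 1, as had 20.1% of all loci, and Gclm had both above, as had 21.1%. Between siSbsn and no siRNA 0.0% of 13176 loci were called, the 8 log2-fold changes lay between -0.38 (Txnrd1) and 0.30 (Nqo1), and none had an unadjusted p under 0.05, against 23 of all loci. DESeq2 called 0 loci there. These comparisons share the siControl, siSbsn or untreated libraries with one another, so their values are not separate evidence. On simulated counts the siControl against no siRNA comparison found 5 of 100 loci given a log2 change of 1, and 81 of 100 given a change of 2.

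Within batch 1 the 2 libraries of a condition stood further apart than the conditions for several of these genes. Nqo1 was 1.93, 1.78 and 2.27 times as high in replicate 1 as in replicate 2 without siRNA, in siControl and in siSbsn. Srxn1 was 1.29, 1.37 and 1.19 times as high. Both lay above in all 3 conditions, as did 28.2% of all loci. Hmox1 was 2.50, 1.23 and 2.23 times as high in replicate 2, and Txnrd1 was 1.75, 1.72 and 1.47 times as high in replicate 2. Together with Gclm they lay below in replicate 1 in all 3 conditions, as did 28.0% of all loci. For Gclm the distance was small, with replicate 2 at 1.04, 1.08 and 1.02 times replicate 1. With 8 genes, 2 above and 3 below do not set them apart from these shares of all loci.

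The replicate 1 libraries without siRNA and with siSbsn stood apart from the other 4 libraries of batch 1 in Hmox1, Gclm and Txnrd1, which were lowest there (14.1% of all loci were), and in Nfe2l2 and Gclc, which were highest there (17.6% of all loci were). For Nfe2l2 (137 and 145 CPM against at most 136 CPM) and for Gclm (35.3 and 35.2 CPM against at least 35.8 CPM) the distance was small. In the same 2 libraries 4 of 6 fibroblast markers (Col1a1, Col1a2, Col3a1 and Pdgfra) were above the other 4 libraries, as were 2 of 4 melanocyte markers (Tyr and Dct), 2 of 5 immune markers (Ptprc and Csf1r) and Sbsn itself. Col1a1, a fibroblast collagen, was at 725 and 902 CPM in these 2 libraries and between 335 and 385 CPM in the others. The summed level of the 6 fibroblast markers was 482 to 928 CPM without siRNA, 413 to 426 CPM in siControl and 488 to 1163 CPM in siSbsn of batch 1, and 373 to 420 CPM in siControl and 358 to 393 CPM in siSbsn of batch 2, and no fibroblast marker was at 0. Their part in the values of the NRF2 genes was not tested. In RNA from whole cultures, fewer cells of a type and less RNA per cell cannot be told apart.

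**Figure D3:**
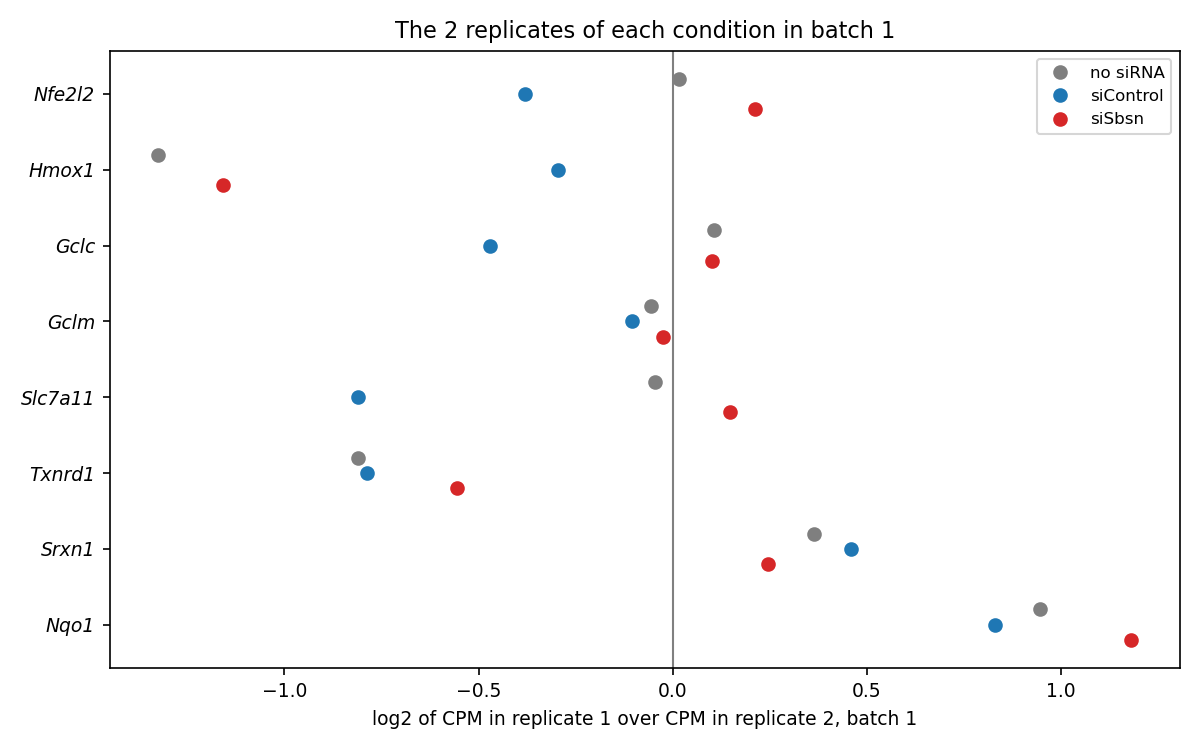
The log2 ratio of CPM in replicate 1 over replicate 2 of batch 1 is plotted for each gene and condition. All 3 points lie right of 0 for Nqo1 and Srxn1 and left of 0 for Hmox1, Txnrd1 and Gclm.

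Of the 8 genes 5 were called between batch 2 and batch 1 over the siControl and siSbsn libraries, 2 higher in batch 2 (16.4% of 13211 loci were called higher) and 3 lower (21.6% of all loci were called lower). Nqo1 had the largest change, from a mean of 13.0 CPM in batch 1 to 2.10 CPM in batch 2, a log2-fold change of -2.64 (SE 0.25, q = 2.29e-05, edgeR). Srxn1 fell by 0.93 on the log2 scale (SE 0.10, q = 6.01e-05) and Slc7a11 fell by 0.85 (SE 0.21, q = 0.00650). Gclc rose by 0.77 (SE 0.11, q = 0.000346), from 63.0 to 107 CPM, and Txnrd1 rose by 0.85 (SE 0.16, q = 0.00156), from 168 to 300 CPM. Neither Nfe2l2 (0.23, SE 0.09, q = 0.0580) nor Hmox1 (-0.22, SE 0.20, q = 0.375) passed, and Gclm had a q of 0.0393 at a log2-fold change of -0.18, which is under the size threshold and turned to 0.06 with the length trend taken out, again on a length of 1088 bases. Hmox1 was called lower (-0.51, q = 0.000550) when both replicate 1 libraries of batch 1 were left out, and the same 5 calls held in every other alternative.

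Except for Slc7a11, the called genes were separated by single libraries too. Slc7a11 overlapped, with siControl batch 1 replicate 1 at 7.75 CPM and the batch 2 libraries at 6.70 to 9.70 CPM. All 6 batch 2 libraries were above all 6 batch 1 libraries for Gclc and Txnrd1 (14.2% of all loci), and below them for Nqo1 and Srxn1 (16.5% of all loci). Among the 6 libraries of each batch, where batch 1 also holds the libraries without siRNA, the ratio of highest to lowest was larger in batch 1 for 7 of the 8 genes and smaller for Gclm (1.13 against 1.16). The highest library was 3.26 times the lowest for Hmox1, 2.82 times for Slc7a11 and 2.51 times for Nqo1 in batch 1, against 1.33, 1.45 and 1.50 times in batch 2. Of the marker lists, 3 of 4 keratinocyte markers (Krt5, Krt14 and Krt17) and 3 immune markers were called lower in batch 2, 2 melanocyte markers (Dct and Tyr) were called higher, and of the fibroblast markers Dcn and Lum were called higher and Col1a1 lower. The summed level of the 4 keratinocyte markers was 39915 to 54976 CPM without siRNA, 50323 to 96816 CPM in siControl and 48925 to 60713 CPM in siSbsn of batch 1, and 33999 to 46178 CPM in siControl and 34105 to 38257 CPM in siSbsn of batch 2. Their part in the batch difference was not tested.

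The other genes of the pathway were taken from a list of 48 loci in 7 groups, of which 45 passed the filter in the comparisons over both batches. None was called between siSbsn and siControl over both batches, in batch 1 or in batch 2 by edgeR. Over both batches 13 of 45 had an unadjusted p under 0.05, where 18.9% of all loci had. The median log2-fold change was -0.11 against 0.01 over all loci. In batch 1, 14 of 46 loci had both siControl libraries above the other 4 libraries (21.1% of all loci did), and 6 had both below (20.1% did). The 14 include Maff, Fth1, Ftl1, Osgin1, Akr1b8, Slpi and Sprr2d, whose siSbsn against siControl values in batch 1 therefore rest on siControl standing apart. Between the batches 26 of 45 were called lower in batch 2 (21.6% of all loci were) and 3 higher (16.4% of all loci were), with a median of -0.72 against -0.02 over all loci tested. The list was chosen with earlier results of these data known, so its counts beside the shares of all loci are a description. With each library's length trend taken out 22 of the 26 were still called lower, and 20 were with both replicate 1 libraries of batch 1 left out. Of the 3 called higher (Cul3, Abcc4 and Ephx1), Ephx1 alone was still called in either case, as it was without siControl batch 1 replicate 1. Of the 29 calls 20 held in all 16 alternatives, and the other 9 (Nfe2l1, Cul3, Gstp1, Abcc4, Prdx1, Txn1, Cbr1, Cbr3 and Akr1b8) were lost in at least 1. Uniquely aligned reads were counted, so genes with near-identical copies or pseudogenes, such as Sprr2d, Sprr2h, Gstm1, Gsta3, Fth1, Ftl1, Txn1 and Prdx1, are uncertain. Some list loci, among them those of Keap1, Abcc4, Tkt, Me1, Prdx1, Trim16 and Slpi, were counted under joined names, whose reads cannot be told apart here.

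Among 9 regulators, 1 was called higher and 1 lower between the batches. Cul3, the scaffold of the ligase that removes NRF2, was at 324 to 356 CPM in siControl of batch 2 and at 192 and 269 CPM in siControl of batch 1, a log2-fold change of 0.57 (SE 0.10, q = 0.00134, edgeR). Nfe2l1, a related factor, fell by 0.53 (SE 0.09, q = 0.000939). Keap1 had -0.20 (SE 0.09, q = 0.0650). Maff, a small MAF partner of NRF2, had the smallest p of the group between siSbsn and siControl. It was at 31.8, 33.8 and 33.9 CPM in siControl and 27.6, 25.2 and 28.3 CPM in siSbsn of batch 2, and at 31.1 and 36.8 CPM in siControl and 25.6 and 23.8 CPM in siSbsn of batch 1, with no overlap in either batch (-0.35, SE 0.08, unadjusted p = 0.00136, q = 0.256). Without siRNA Maff was at 23.6 and 29.7 CPM, so in batch 1 both siControl libraries lay above the other 4. Sqstm1, the autophagy adaptor that also sequesters KEAP1, was at 748, 704 and 856 CPM in siControl and 628, 613 and 634 CPM in siSbsn of batch 2, and at 727 and 902 CPM in siControl and 384 and 581 CPM in siSbsn of batch 1 (-0.47, SE 0.14, unadjusted p = 0.00521, q = 0.256). It was at 395 CPM in the replicate 1 library without siRNA, near its level in the library labelled siSbsn batch 1 replicate 1. Every siSbsn library lay below every siControl library in both batches for 4 of the 45 loci of the wider list, Mafk, Maff, Sqstm1 and Gsr (4.12% of all loci did), and above for 1, Abcc4 (5.02% of all loci did).

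The glutathione and conjugation group had 10 of 12 loci tested, with 5 called lower (21.6% of all loci were) and 1 higher (16.4% were) in batch 2. Gsta4, a glutathione transferase for lipid aldehydes, was at 118 to 275 CPM in the 6 libraries of batch 1 and at 11.5 to 18.4 CPM in batch 2, a log2-fold change of -3.67 (SE 0.20, q = 1.31e-06, edgeR). Gpx2, a selenium-dependent peroxidase, was at 0.515 to 3.91 CPM in batch 1 and at no more than 0.105 CPM in batch 2. Gsta3, Gstm1 and Gstp1 were called lower as well, the first 2 at low levels. Gsta3 was at 0.579 to 1.23 CPM in batch 1 and 0.202 to 0.444 CPM in batch 2. Gstm1 was at 1.98 to 4.54 CPM in batch 1 and 1.28 to 1.65 CPM in batch 2. Gstp1 went from -0.72 to -0.47, no longer called, without siControl batch 1 replicate 1. Abcc4, a transporter, was called higher (0.60, SE 0.15, q = 0.00728). Gsr, glutathione reductase, had -0.32 and was not called.

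All 6 genes of NADPH supply, which feeds glutathione and thioredoxin reductases, were called lower in batch 2 (21.6% of all loci were). G6pdx, the entry enzyme of the pentose phosphate pathway, was at 138 to 209 CPM in the 6 libraries of batch 1 and at 55.5 to 58.5 CPM in batch 2, a log2-fold change of -1.52 (SE 0.10, q = 4.05e-06, edgeR). Pgd, the next dehydrogenase of that pathway, fell by 1.42 (SE 0.10). Me1, malic enzyme, fell by 1.13 (SE 0.11), Taldo1 by 1.10, Tkt by 0.74 and Idh1 by 1.29. Idh1 was at 57.0 and 68.3 CPM in the replicate 1 libraries without siRNA and with siSbsn, and at 18.5 to 30.7 CPM in the other 4 libraries of batch 1. Without siSbsn batch 1 replicate 1 its batch difference was -0.85.

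In the thioredoxin and peroxiredoxin group 2 of 4 were called lower in batch 2, Prdx1 (-0.74, SE 0.12) and Txn1 (-0.52, SE 0.17, q = 0.0221, edgeR), and Txn1 lost its call in 7 of 16 alternatives. It was at -0.19 (q = 0.165) with both replicate 1 libraries of batch 1 left out, at -0.28 (q = 0.0457) without siControl batch 1 replicate 1 and at -0.50 by DESeq2. Between siSbsn and siControl all 4 had log2-fold changes below 0 over both batches, with a median of -0.25, and none was called. In batch 2 alone 3 of the 4 were below 0. Within batch 1 all 4 were above 0 between siControl and no siRNA (median 0.49), and the median between siSbsn and no siRNA was 0.007. Txn1 and Prdx6 had both siControl libraries above the other 4 libraries of batch 1, as had 21.1% of all loci. In the iron and haem group 3 of 5 were called lower in batch 2 (21.6% of all loci were). Slc40a1, the iron exporter ferroportin, fell by 2.49 (SE 0.34, q = 0.000250), and Fth1, the ferritin heavy chain, fell by 0.99 (SE 0.15). Blvrb, biliverdin reductase B, fell by 1.16. Ftl1, the ferritin light chain, was at 171, 143 and 201 CPM in siControl and 146, 135 and 140 CPM in siSbsn of batch 2, where the groups overlapped. In batch 1 it was at 293 and 184 CPM in siControl, 123 and 119 CPM in siSbsn and 125 and 138 CPM without siRNA. The log2-fold change of siSbsn against siControl was -0.56 (SE 0.17, unadjusted p = 0.00685, q = 0.256, edgeR). It was called at -0.63 (q = 0.0495) with all 12 libraries in the fit, as were Fth1 at -0.53 and Akr1b8 at -0.51 (q = 0.0495 each). Of the 13562 loci in that fit 104 were called higher and 46 lower.

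Of the other targets 5 of 7 tested were called lower in batch 2 (21.6% of all loci were) and 1 higher (16.4% were). Osgin1, a growth inhibitor induced by oxidative stress, fell by 1.91 (SE 0.13, q = 4.08e-06, edgeR). Trim16, counted as a joined locus with Fbxw10, fell by 0.85 (SE 0.09). Cbr1 and Cbr3, carbonyl reductases, fell by 0.80 and 0.96, and Akr1b8, an aldo-keto reductase, fell by 0.59. Ephx1, an epoxide hydrolase, rose by 0.70 (SE 0.11). Between siSbsn and siControl, Osgin1 had -0.50 (SE 0.13, unadjusted p = 0.00341, q = 0.256). DESeq2 called it (-0.51 on the log2 scale, q = 0.0460), among 50 loci called higher and 42 lower. In batch 1 Osgin1 was at 13.3 and 10.9 CPM in siControl, 7.98 and 6.85 CPM in siSbsn and 7.89 and 8.43 CPM without siRNA. The siControl libraries were thus the group apart there, and in batch 2 the groups overlapped. The epidermal targets were all called lower in batch 2, 4 of 4 (21.6% of all loci were), with a median of -2.87. Sbsn, an epidermal gene outside the list, was lower in batch 2 by 2.63 on the log2 scale (SE 0.36, q = 0.000241, edgeR). Slpi, a protease inhibitor, was at 13.9 to 44.2 CPM in the 6 libraries of batch 1 and 1.56 to 4.70 CPM in batch 2. Sprr2d was at 9.12 to 25.8 CPM in batch 1 and fell by 3.36 on the log2 scale (SE 0.21). Sprr2h fell by 1.54 (SE 0.23) and Cdsn, corneodesmosin, fell by 2.47 (SE 0.15). Sprr2d had -0.65 (SE 0.22, unadjusted p = 0.0118, q = 0.256) between siSbsn and siControl, and in batch 2 its siControl libraries lay on both sides of its siSbsn libraries.

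**Figure D4:**
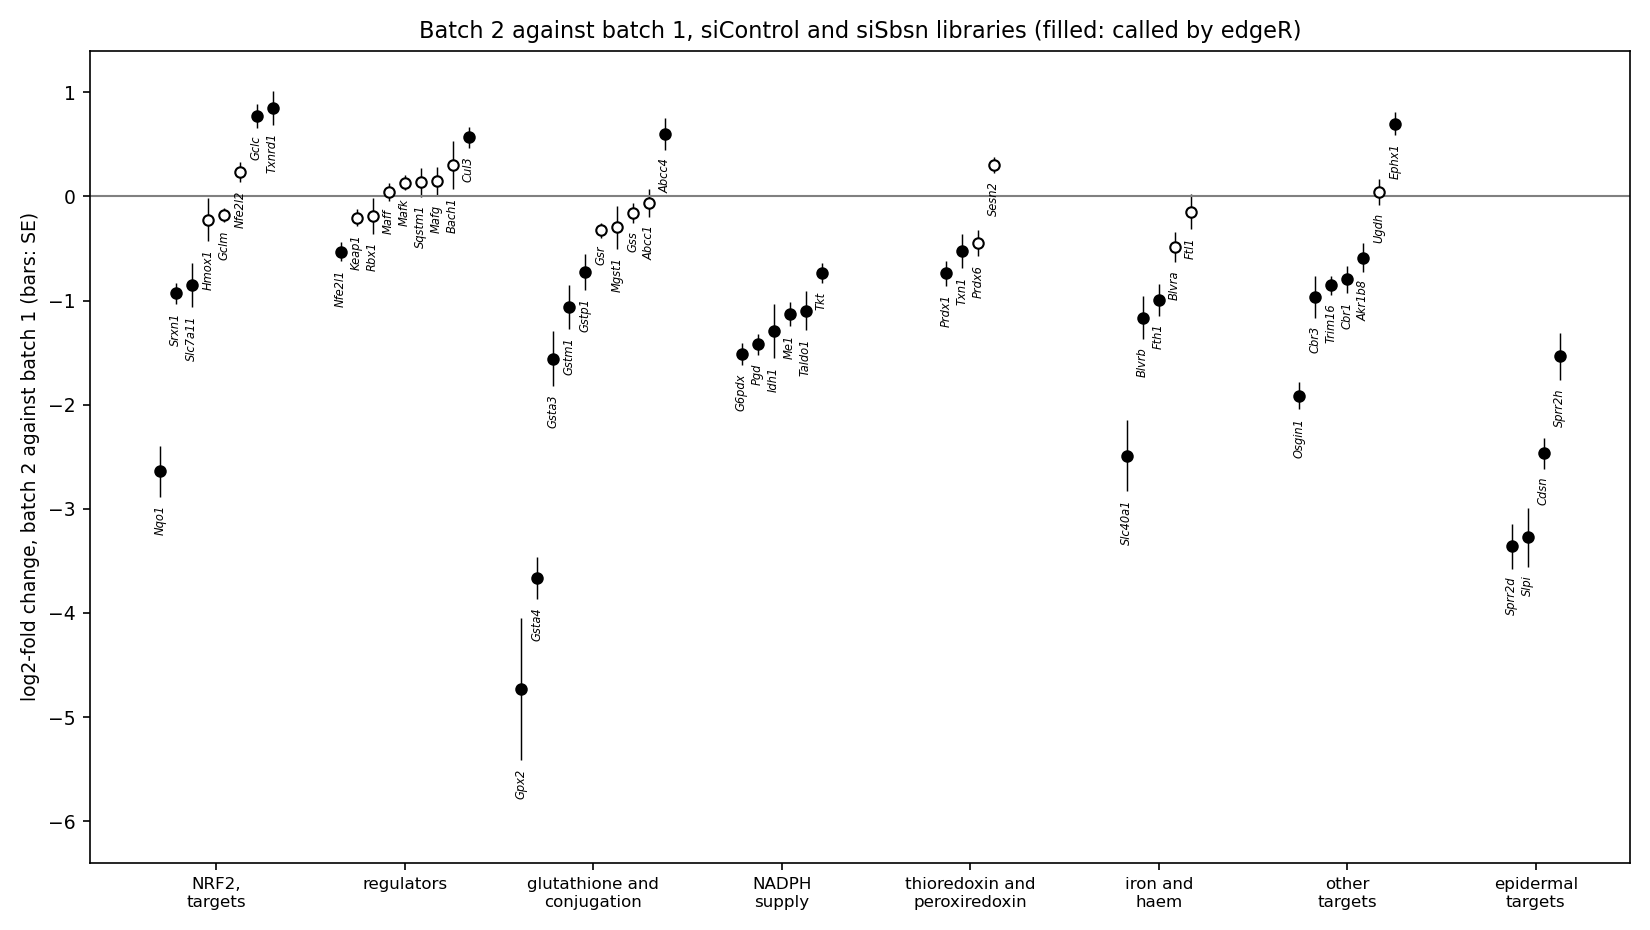
The log2-fold change of batch 2 against batch 1 with bars of 1 standard error is plotted for the 8 genes and the 45 tested loci of the wider list by group, with called loci filled. The 6 NADPH supply genes and the 4 epidermal targets all lie below 0, while Gclc and Txnrd1 lie above 0 and Nqo1 far below. Gpx2 has almost no counts in batch 2.

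To find loci whose course across the libraries was most like that of the targets, the mean log2 CPM of the 7 targets, centred within each batch, was correlated with every locus over the 12 libraries. This mean moved little, between -0.12 in siControl batch 1 replicate 1 and 0.10 in siControl batch 2 replicate 2. The highest Pearson correlations among 13488 loci were those of Hic2 (0.895), Wdr82 (0.892), Sulf1 (0.892), Tnfaip3 (0.888) and Dna2 (0.873). The 12 points share libraries, library size and RNA quality with the targets, and the loci were ranked on this measure, so the correlations are a description.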

How the data were processed

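The authors aligned reads to mm10 with STAR, counted uniquely aligned reads on UCSC KnownGene loci, and deposited whole-number counts without normalization. The sources used here do not say if strand entered the counting. The deposited table has 21947 loci, 4802 with several gene names, and its starts were printed after adding 1. Transcript length is that of the longest protein-coding GENCODE transcript within the locus (200 bases tolerance).

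Counts were normalized by TMM, filtered by edgeR's filter on low counts and compared by edgeR 4.0.16 (R 4.3.3, quasi-likelihood F test), with q-values by Benjamini-Hochberg over all loci. Fits over both batches had batch and treatment as terms, and batch 1 comparisons used all 6 libraries of batch 1. The SE printed for edgeR is |log2-fold change| / sqrt(F). Loci were called at q under 0.05 and an absolute log2-fold change over 0.5, the thresholds of the study, whose authors used DESeq2. DESeq2 1.42.0 without shrinkage was an alternative, as were RLE factors, no filter, removal of each library's trend on gene length, all 12 libraries in 1 fit, leaving out both replicate 1 libraries of batch 1, a replicate block and leaving out each library. log2 CPM used a pseudocount of 0.5. The tests were tried on simulated counts.

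Members and lists were chosen with earlier results of these data known. Named were Sbsn, the 8 genes, the 2 loci per list group with the smallest p between siSbsn and siControl, the list loci called in any comparison (at most 6 per group), and the 5 loci most like the targets. Other genes named with values (Keap1, Gsr and the markers) were chosen after their values were seen. Depth (49 to 14530 counts per gene and library) sets the counting error. No group has 4 or more libraries, so no library was tested as an outlier.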

Additional observations from a re-analysis of the deposited data

How the results depend on the processing

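The 5 calls among the 8 genes between the batches (Nqo1, Srxn1, Slc7a11, Gclc and Txnrd1) held under every alternative tried, and of the values of the 8 genes under alternatives 665 kept direction and side of the threshold, 45 turned sign and 10 newly passed it. Among the 10 were 1 gene each with no filter on low counts, Hmox1 in siSbsn against siControl of batch 1 and Slc7a11 in siControl against no siRNA. Hmox1 also passed between the batches with both replicate 1 libraries of batch 1 left out. The others came with 1 library left out. With 1 library left out in turn the number of the 8 genes called ranged from 0 to 2 in siSbsn against siControl of batch 1, in siControl against no siRNA and in the interaction, and the cause was not tested beyond the libraries named in the report. Over all loci, where the chosen test called none, 104 were called higher and 46 lower between siSbsn and siControl with all 12 libraries in the fit, and in batch 1 the numbers were 678 and 616, or 624 and 227 with no filter.

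The values that turned sign were not called in either setting. Those of Gclm with the length trend removed use a length of 1088 bases, while its longest coding transcript has 5589. With the trend on gene length removed, Gclm was at 0.070 (siSbsn against siControl, both batches), 0.19 (batch 1), -0.24 (siControl against no siRNA), 0.063 (batch 2 against batch 1) and -0.21 (interaction), and Nqo1 at 0.097 over both batches and -0.19 between siControl and no siRNA. With both replicate 1 libraries of batch 1 left out, Nfe2l2 was at -0.078 over both batches and at 0.11 in the interaction. Srxn1 between siControl and no siRNA, at 0.01 as chosen, was at -0.014 with DESeq2, -0.012 with RLE, -0.0030 with no filter, -0.053 with the length trend removed, -0.031 with all 12 libraries and -0.00115 with the replicate block.

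With 1 library left out, Hmox1 ranged from -0.59 to -0.28 over both batches and from -1.60 to -0.43 in batch 1, and Txnrd1 from -0.34 to -0.083 over both batches. Values that turned sign ranged as follows. For siSbsn against siControl over both batches Nfe2l2 ranged from -0.048 to 0.073 and Nqo1 from -0.38 to 0.060. In batch 1 Nfe2l2 ranged from -0.028 to 0.30, Nqo1 from -0.56 to 0.64 and Srxn1 from -0.024 to 0.48, and in batch 2 Slc7a11 ranged from -0.16 to 0.13. Between siControl and no siRNA Nfe2l2 ranged from -0.31 to 0.015, Nqo1 from -0.35 to 0.71, Srxn1 from -0.27 to 0.24 and Txnrd1 from -0.33 to 0.55. Between siSbsn and no siRNA Gclm ranged from -0.046 to 0.011, Hmox1 from -0.97 to 0.54, Nfe2l2 from -0.12 to 0.086, Nqo1 from -0.40 to 0.85 and Txnrd1 from -0.72 to 0.087. In the interaction Gclm ranged from -0.032 to 0.077, Nqo1 from -0.96 to 0.19, Srxn1 from -0.41 to 0.048 and Txnrd1 from -0.14 to 0.65.

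Replicate numbers 1 and 2 are shared by the conditions of batch 1 only, and the labels do not say that a number marks a shared culture or day. Deviations from the group means correlated at 0.38 between no siRNA and siControl, 0.80 between no siRNA and siSbsn and 0.46 between siControl and siSbsn. With the replicate block 0 of the 8 genes were called between siSbsn and siControl over both batches. At an unadjusted p under 0.05 there were 4 of the 8 genes in place of 2 under the block, and 4177 loci (31.1% of those tested) in place of 2501 (18.9%). Under the block Hmox1 was at -0.52 (q = 0.115), Gclc at 0.29 (q = 0.122), Txnrd1 at -0.24 (unadjusted p = 0.0106, q = 0.116) and Srxn1 at 0.15 (unadjusted p = 0.0460, q = 0.157, edgeR). In batch 1 alone the block gave 4 of the 8 genes at an unadjusted p under 0.05 (Hmox1, Gclc, Txnrd1 and Slc7a11) in place of 1, with 32.9% of loci in place of 15.8%.

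In batch 1 the siSbsn against siControl comparison recovered 10 of 100 simulated loci changed by 1 on the log2 scale. The simulated libraries were independent, while the real libraries of batch 1 deviate together by replicate number. The recovered share therefore cannot be carried over to the real libraries.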
